A study of Mus musculus with 4 samples.

Results

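The guanylate-binding proteins (GBPs) and the immunity-related GTPases (IRGs) are 2 families of enzymes that mouse cells make when they receive interferon gamma. The 10 genes described here were taken by symbol: the GBP genes Gbp2, Gbp3, Gbp4, Gbp5, Gbp7, Gbp8 and Gbp9, and the IRG genes Irgm1, Igtp (which encodes Irgm3) and Iigp1 (which encodes Irga6). All 10 were among the 32285 genes of the deposited tables, and they were read in B, T, natural killer (NK), monocyte and macrophage cells. The cells came from the mononuclear fraction of blood, drawn from BL/6 and SM/J mice, which are inbred strains. Transcripts were counted in single cells on the 10x droplet platform by unique molecular identifiers (UMIs). The 4 groups were BL/6 at 12 months, BL/6 at 20 months, SM/J at 12 months and SM/J at 20 months. The labels name no treatment, sex or genetic alteration. Both ages of a strain were run together in a single multiplexed 10x library and separated by tag oligos, so the 4 groups are 4 cell matrices from 2 libraries, with no replicate of a group. For the same reason a strain difference cannot be told apart from a difference between runs.

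Interferon gamma, released mainly by T and NK cells, binds the receptor chains Ifngr1 and Ifngr2, and the signal switches on these GTPase genes. GBPs are large dynamin-like GTPases that gather on the vacuoles of intracellular parasites and on bacteria, and they promote inflammasome activity. Among the IRGs, Irgm1 and Igtp are regulators that guard the cell's own membranes, and Iigp1 is an effector that coats the parasite's vacuole. Macrophages and monocytes are well-known sites of their induction, and lymphocytes also carry them.

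On the GRCm38 assembly (GENCODE M21), 4 members lie in a row on the plus strand of chromosome 3: Gbp5 (142493978 to 142522344), Gbp7 (142530342 to 142550149), Gbp3 (142560026 to 142573209) and Gbp2 (142620602 to 142638008). Gbp8 (105014150 to 105139540), Gbp9 (105077630 to 105139539) and Gbp4 (105115767 to 105139586) lie on the minus strand of chromosome 5. Their annotated exons overlap on the same strand, so the division of counts among those 3 genes is uncertain. Irgm1 (48861968 to 48871683, minus strand) and Igtp (58199556 to 58207591, plus strand) are on chromosome 11. Exons of Igtp overlap those of Irgm2 on the same strand, so the division of counts between these 2 genes is uncertain too.

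Sequence upstream of the RefSeq start is shown because the members are read here as interferon targets. The RefSeq promoter table (GRCm38.p6, from 250 bases before to 50 bases after a gene's start) held 6 of the 10 members. Gbp4, Gbp8, Gbp9 and Iigp1 had no window. The letters GAAANNGAAA, the core of an interferon-stimulated response element, were found on either strand for 6 of the 6, against 3.99% of the 27025 genes of the table. Gbp3 has a second window, in which neither motif was found. The letters TTCNNNGAA, the core of a gamma-activated site, were found for 3 (Gbp5, Gbp7 and Igtp), against 9.55% of the genes. Capitals mark every match of either motif in the printed stretch, which is written 5′ to 3′ on the gene's strand. By the GENCODE coordinates above, the stretches of Gbp5 and Irgm1 lie inside the annotated gene, and that of Gbp2 mostly does. For Gbp2 and Irgm1 an annotated exon began before the end of the match, so only 30 bases around it are printed. A match describes letters in a window and is not a measured binding site.
Gbp5, chr3:142496759-142496899, plus strand: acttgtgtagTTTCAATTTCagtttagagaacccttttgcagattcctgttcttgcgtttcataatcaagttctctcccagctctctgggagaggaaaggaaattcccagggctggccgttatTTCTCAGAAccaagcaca
Gbp7, chr3:142530216-142530335, plus strand: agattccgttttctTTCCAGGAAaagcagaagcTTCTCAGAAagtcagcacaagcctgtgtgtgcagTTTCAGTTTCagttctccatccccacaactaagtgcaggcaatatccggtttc
Gbp3, chr3:142559924-142560025, plus strand: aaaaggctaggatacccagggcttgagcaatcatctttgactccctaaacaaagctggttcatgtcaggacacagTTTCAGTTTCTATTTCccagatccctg
Gbp2, chr3:142620594-142620623, plus strand: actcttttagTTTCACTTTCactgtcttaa
Irgm1, chr11:48871428-48871457, minus strand: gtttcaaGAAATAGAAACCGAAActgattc
Igtp, chr11:58199436-58199555, plus strand: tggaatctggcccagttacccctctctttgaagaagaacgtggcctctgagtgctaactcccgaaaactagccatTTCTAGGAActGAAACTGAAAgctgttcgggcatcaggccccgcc
In Gbp7, a pair of gamma-activated core matches precedes the response element match, and in Igtp the matches of both motifs stand side by side. In Gbp3 and in Irgm1 the capitals run on because matches overlap.

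The 4 matrices held 12299 cells (3551, 3272, 2580 and 2896, in the order BL/6 at 12 and 20 months, then SM/J at 12 and 20 months), of which 11596 were kept. Median depth was 4060, 4914, 4729 and 8837 UMIs per cell. Cells were clustered anew and named from markers, and a class is called "like" its type for that reason. Each group carries 3 of the tag oligos, and cells sharing a tag are called an aliquot. The labels do not tie a tag to an animal, so aliquots show spread within a group and are not biological replicates. With 1 cell matrix per group no test between groups was possible, and no p-value is given. Only 8 barcodes occurred in more than 1 group, and 0 were shared by the 2 ages of a strain.

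Levels are given as CPM: the UMIs of a gene per 1000000 gene UMIs of the class in that group. They are followed by the lowest and highest aliquot. Ratios are log2 ratios of CPM + 1, with a 95% interval that covers counting error only. A member was called past 2-fold where its log2 ratio was at least 1 or at most -1 and the groups compared held at least 20 of its UMIs together. A member can reach that minimum through 1 group alone, and counts of called members are then descriptions. A fall in the level of a class cannot tell fewer expressing cells from less RNA per cell. CPM compares one gene across cells and groups and does not rank genes against each other.

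The members' transcripts were detected in all 6 classes of all 4 groups, and 1 value stood far above the rest, that of the macrophage-like cells of BL/6 mice at 12 months. The summed level of the 10 members there was 1137 CPM (1119 to 1213). In the other groups the macrophage-like cells held 155 (129 to 182) CPM in BL/6 at 20 months, 186 (141 to 236) in SM/J at 12 months and 195 (188 to 210) in SM/J at 20 months. T cell-like cells held 266 (241 to 279), 256 (248 to 264), 315 (247 to 355) and 241 (151 to 299) CPM in the same group order. Their aliquot ranges overlapped in every comparison. NK cell-like cells held 214, 245, 217 and 280 CPM from only 97, 69, 37 and 46 member UMIs.

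In both monocyte classes the sum was lower at 20 months than at 12 months in both strains. Classical monocyte-like cells held 254 (236 to 264) and 108 (94.6 to 116) CPM in BL/6 at 12 and 20 months, and 209 (189 to 236) and 91.7 (66.7 to 123) in SM/J. In nonclassical monocyte-like cells the values were 165 (163 to 168) and 64.4 (56.1 to 70.5) CPM in BL/6, while SM/J held 110 (94.8 to 118) and 69.5 (56.0 to 104). B cell-like cells, the most numerous class, held 121 (107 to 135), 112 (96.1 to 120), 96.2 (86.3 to 105) and 135 (128 to 140) CPM. Among the groups at 12 months the order in BL/6 was macrophage-like, T, classical monocyte, NK, nonclassical monocyte and B. The neighbours T and classical monocyte overlapped in their aliquots, and so did NK with both of its neighbours. At 20 months both monocyte classes stood below the B cell-like cells in each strain, with overlapping aliquots between classical monocyte-like and B cell-like cells in BL/6.

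**Figure D1:**
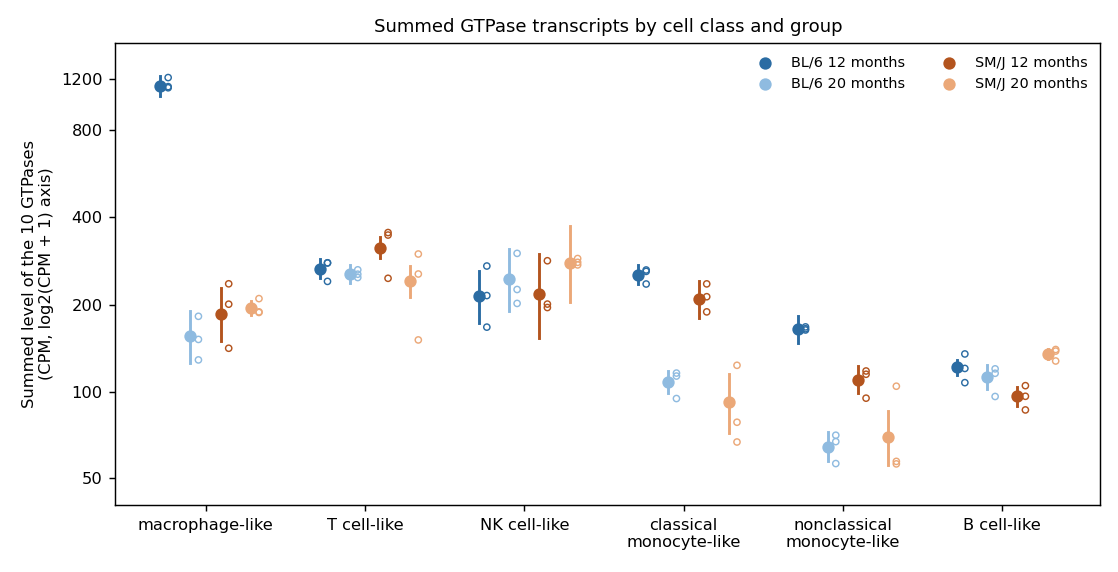
Summed CPM of the 10 GTPase genes on a log2(CPM + 1) axis in 6 cell classes of the 4 groups. Filled circles are groups, open circles are the 3 tag aliquots, and vertical lines are 95% counting intervals. The macrophage-like cells of BL/6 at 12 months stand at 1137 CPM, and both monocyte classes are lower at 20 months in both strains.

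The comparison of ages within a strain asks how these genes differ between middle-aged and old mice. In BL/6, the 10 members and 4 well-filled classes (B, T and both monocyte classes) give 40 pairs of gene and class, of which 35 had at least 20 UMIs. Of these, 10 were lower by at least 2-fold at 20 months and 0 were higher. Over all genes, 2.12% of gene and class pairs were lower and 1.86% were higher by the same rule. All 10 were in monocyte-like cells. In 15 pairs every 20-month aliquot was below every 12-month aliquot, and in 1 pair every one was above, against 11.6% and 11.7% of all pairs.

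Classical monocytes are the inflammatory monocytes that leave the blood for infected tissue. In BL/6 classical monocyte-like cells, 8 of the 10 members had enough UMIs, and 5 were lower by at least 2-fold at 20 months (background 2.19% of 9954 genes): Gbp2, Irgm1, Gbp8, Gbp5 and Igtp. Gbp2, which is recruited to Toxoplasma vacuoles, stood at 75.6 (61.6 to 87.5) CPM in BL/6 at 12 months and 12.6 (9.19 to 18.0) at 20 months. SM/J held 17.4 (0 to 38.2) at 12 months and 5.02 (0 to 7.26) at 20 months. Its 12-month BL/6 group stood alone, with every aliquot above those of all other groups. The BL/6 age ratio was -2.49 (-2.91 to -2.09). The SM/J values rest on 15 and 4 UMIs and were under the count minimum.

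Irgm1, whose loss leaves mice open to several intracellular infections, was measured at 34.6 (24.4 to 43.6) CPM in BL/6 at 12 months and 8.34 (5.76 to 10.8) at 20 months, and at 48.8 (38.2 to 70.8) and 13.8 (6.67 to 25.4) in SM/J. In BL/6 every 12-month aliquot was above every 20-month aliquot. The ratio was -1.93 (-2.45 to -1.42) in BL/6, and the SM/J value was -1.75 (-2.77 to -0.81). Gbp3, another chromosome 3 GBP, stood at 56.4 (48.9 to 71.9) and 32.9 (23.6 to 39.1) CPM in BL/6, while SM/J held 39.5 (38.2 to 42.5) and 12.6 (8.09 to 18.1). Its ratio passed 2-fold in SM/J, at -1.58 (-2.66 to -0.58), and not in BL/6, at -0.76 (-1.08 to -0.43), although the BL/6 aliquots did not overlap. The difference between the strains in this age ratio was not tested.

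Gbp5, which promotes assembly of the NLRP3 inflammasome, was at 13.9 (11 to 17.9) and 4.28 (3.40 to 5.04) CPM in BL/6, while SM/J held 10.5 (6.00 to 15.9) and 2.51 (0 to 6.67). The BL/6 ratio was -1.50 (-2.21 to -0.78). Igtp was at 26.3 (24.5 to 28.2) and 10.7 (10.2 to 11.5) CPM in BL/6, a ratio of -1.22 (-1.74 to -0.71), and at 17.4 (12.7 to 23.6) and 11.3 (8.09 to 14.5) in SM/J, a ratio of -0.58 (-1.83 to 0.62). The BL/6 aliquots were far apart, and the SM/J interval included 0. Gbp8, whose annotated exons overlap those of Gbp4 and Gbp9, was at 8.65 and 1.92 CPM in BL/6 and at 6.98 and 8.79 in SM/J. Its BL/6 ratio was -1.72 (-2.55 to -0.82).

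Gbp7, a GBP linked to the oxidative killing of bacteria, did not pass 2-fold with age in either strain. It was at 25.6 (23.5 to 28.1) and 25.0 (22.3 to 26.6) CPM in BL/6, while SM/J held 46.5 (42.5 to 48.0) and 30.1 (13.3 to 37.8). Gbp9 was at 10.1 and 11.5 CPM in BL/6, and at 17.4 and 5.02 in SM/J from 15 and 4 UMIs. Gbp4 and Iigp1 were nearly absent, at no more than 3.49 CPM in any group. In SM/J only 4 members had enough UMIs in this class, of which Irgm1 and Gbp3 were past 2-fold lower (background 3.25% of 7235 genes). SM/J had 115 and 98 such cells, with an aliquot of 17 cells at 20 months, so overlap of aliquots was not counted there.

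The sum over members in this class had an age ratio of -1.23 (-1.40 to -1.06) in BL/6, and the SM/J value was -1.18 (-1.59 to -0.79). When each strain was clustered alone the SM/J ratio was -0.47, and with a mitochondrial limit of 20 percent it was -0.54, so the 2-fold call in SM/J was lost under both. Most BL/6 cells of the class were in cluster 5 and SM/J cells in cluster 21, whose leading genes included the interferon-induced Ifi44 and Ifi44l. Markers of other cell types also moved: the summed platelet markers were 196, 449, 95.3 and 113 CPM and the nonclassical monocyte markers 1293, 792, 1482 and 1025 CPM. Their part in the result was not tested. Median depth per cell was 8385, 8249.5, 6853 and 7196 UMIs, and median mitochondrial share 3.09%, 3.34%, 2.50% and 2.82%.

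**Figure D2:**
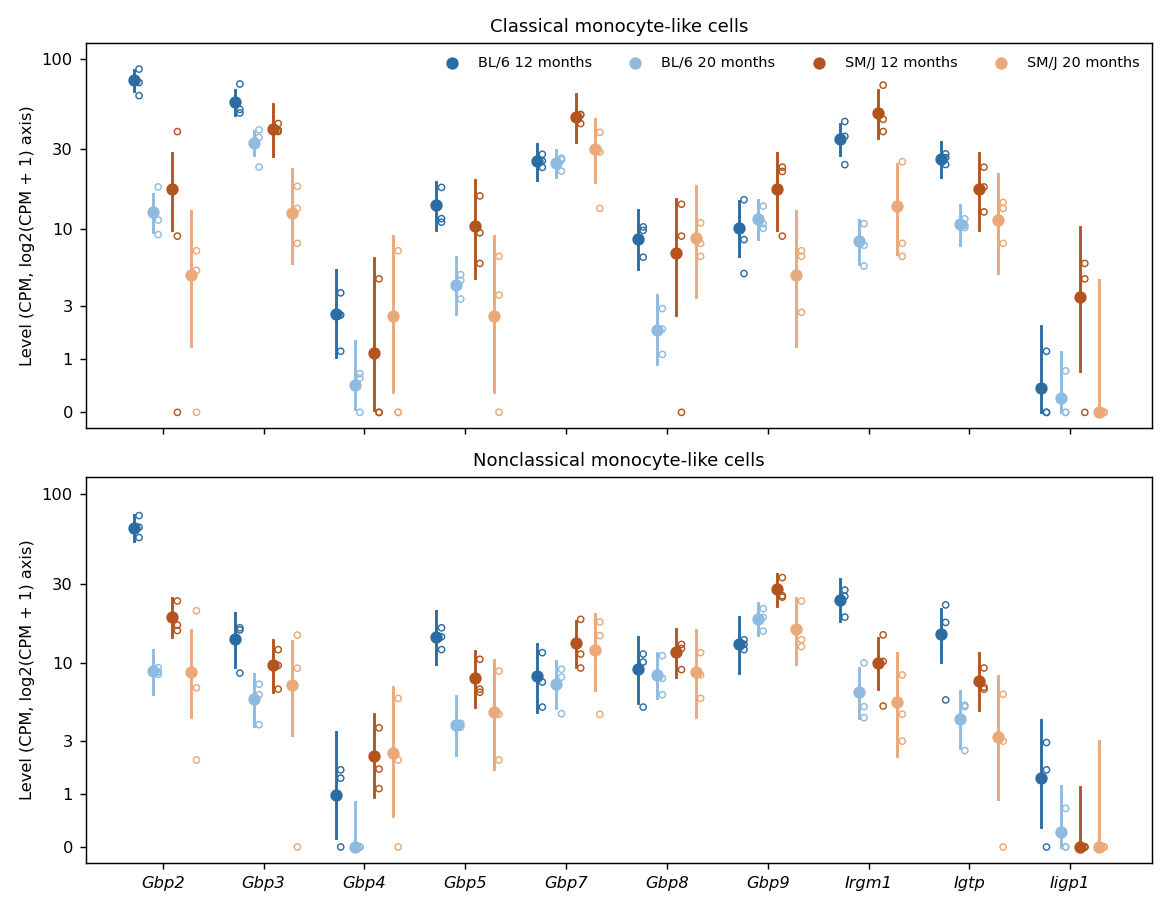
CPM of the members in classical and nonclassical monocyte-like cells of the 4 groups, on a log2(CPM + 1) axis. Filled circles are groups with 95% counting intervals and open circles are aliquots. Gbp2 in BL/6 is at 75.6 and 12.6 CPM at 12 and 20 months in classical and at 63.7 and 8.91 CPM in nonclassical monocyte-like cells, while Gbp7 in BL/6 classical monocyte-like cells is 25.6 and 25.0 CPM.

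Nonclassical monocytes patrol the inner wall of blood vessels. In BL/6, 5 members were lower by at least 2-fold at 20 months in this class (background 1.81% of 9652 genes): Gbp2, Irgm1, Gbp5, Igtp and Gbp3. Gbp2 stood at 63.7 (55.9 to 74.8) CPM in BL/6 at 12 months, 8.91 (8.53 to 9.40) in BL/6 at 20 months, 19.2 (15.9 to 23.9) in SM/J at 12 months and 8.89 (2.11 to 20.9) in SM/J at 20 months. Every 12-month BL/6 aliquot was above those of the other groups, and the 20-month groups of the strains were close to each other. The ratio was -2.71 (-3.20 to -2.23) in BL/6, and the SM/J value was -1.03 (-1.97 to -0.15).

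Irgm1 was at 24.3 (19.1 to 27.7), 6.52 (4.41 to 10.1), 10.1 (5.30 to 15.0) and 5.66 (2.98 to 8.46) CPM in the same group order. Its BL/6 ratio was -1.75 (-2.37 to -1.13), without overlap of the aliquots. Gbp5 was at 14.6 (12.2 to 16.5), 3.91 (3.78 to 4.03), 8.12 (6.55 to 10.6) and 4.85 (2.11 to 8.95) CPM, with a BL/6 ratio of -1.67 (-2.42 to -0.89). Igtp was at 15.1 (5.83 to 22.6), 4.35 (2.52 to 5.37), 7.79 (6.86 to 9.35) and 3.23 (0 to 6.34) CPM, with a ratio of -1.59 (-2.33 to -0.83) in BL/6, and the SM/J value was -1.05 (-2.35 to 0.24). Gbp3 had a BL/6 ratio of -1.14 (-1.85 to -0.41), from 14.1 and 5.87 CPM.

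Gbp9 went against this order in BL/6, at 13.1 (12.2 to 14.0) CPM at 12 months and 18.7 (15.8 to 21.5) at 20 months, while SM/J held 27.9 (25.1 to 32.7) and 16.2 (12.7 to 23.9). Gbp7 and Gbp8 ranged from 7.39 to 13.3 CPM over the groups, and Gbp4 and Iigp1 did not exceed 2.43. The summed ratio was -1.34 (-1.57 to -1.12) in BL/6, and the SM/J value was -0.66 (-1.01 to -0.31). In SM/J, 2 members (Gbp2 and Igtp) were past 2-fold lower, against 3.24% of 9200 genes. In the SM/J cells of this class the summed B cell markers were 1151 CPM at 12 and 496 at 20 months, and the erythroid markers 660 and 78.4. Their part in the SM/J values was not tested.

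Iigp1, a gene on chromosome 18, had its widest difference between groups in macrophage-like cells. These cells formed a single cluster led by Prg4, Ednrb, Alox15 and Cd5l, and all 12 macrophage markers were detected in every group, among them Gata6 and Timd4, which mark resident macrophages of the body cavities. The labels give peripheral blood drawn by puncture of the heart, and whether these cells circulated or entered at collection cannot be told from the deposited tables. There were 30, 38, 34 and 397 such cells, so aliquots held few cells, and values in this class are descriptions. Iigp1 stood at 427 (363 to 516) CPM in BL/6 at 12 months, 1.69 (0 to 4.74) in BL/6 at 20 months, 10.1 (5.89 to 22.5) in SM/J at 12 months and 23.6 (17.6 to 30.5) in SM/J at 20 months. Every aliquot of the first group was above every aliquot of the others, although an aliquot held as few as 4 of these cells. In UMIs these were 221, 1, 5 and 135. A UMI of Iigp1 was found in 27 of the 30 cells of BL/6 at 12 months, or 90.0% (exact binomial interval 73.5 to 97.9), and in 69 of 397 cells of SM/J at 20 months, or 17.4%. Thinned to 1000 UMIs per cell, these shares were 30% and 2.52%. Among 2004 B cell-like cells, which came from the same run and so share its free RNA, 7 had a UMI, or 0.349%, and 0 after thinning, at a median depth of 3630.5 UMIs against 16168. The log2 ratio of 20 over 12 months in BL/6 rests on a single UMI at 20 months and was -7.31, with a counting interval of -8.69 to -5.35.

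Every other member with enough UMIs was also lower at 20 months in the BL/6 macrophage-like cells. In this class 8 members could be read and 8 were past 2-fold lower, against 3.79% of the 6124 genes. Some, such as Iigp1 and Gbp8, reached the count minimum through the 12-month group alone. Gbp4 and Gbp9 did not reach it, so the count is a description. Igtp was at 106 (97.9 to 129) CPM at 12 months and 6.75 (0 to 14.2) at 20 months, a ratio of -3.79 (-5.30 to -2.47), and Gbp7 at 149 (145 to 168) and 27.0 (9.48 to 50.4), a ratio of -2.42 (-3.26 to -1.65). The SM/J groups held Igtp at 14.2 and 15.2 CPM and Gbp7 at 48.6 and 50.1. Gbp5 was at 56.0 and 3.37 CPM in BL/6, Gbp2 at 124 and 33.7, Gbp3 at 143 and 59.1, and Irgm1 at 48.3 and 15.2. In SM/J at 12 and 20 months these were lower than in BL/6 at 12 months: Gbp5 at 8.10 and 8.58 CPM, Gbp2 at 32.4 and 23.8, Gbp3 at 44.6 and 49.0, and Irgm1 at 14.2 and 9.81. Gbp8 was at 54.1 CPM at 12 months and had 0 UMIs at 20 months, which is at least 10.7-fold lower against a floor of 3 counts per group. Gbp4 had 11 UMIs at 12 months and 0 at 20 months. Gbp9 was at 9.65 and 8.44 CPM, from 5 UMIs each.

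The summed members had a ratio of -2.86 (-3.20 to -2.55) in BL/6, and the SM/J value was 0.06 (-0.24 to 0.38). Without Iigp1 the sums were 710, 154, 176 and 171 CPM, so the 12-month BL/6 value remained the highest. After thinning, a UMI of any member was found in 63.3% of the macrophage-like cells of BL/6 at 12 months and in 10.5%, 15.2% and 17.6% of those of the other groups. Unthinned shares were 100%, 81.6%, 85.3% and 84.6%. In SM/J the age comparison passed 2-fold for Iigp1 alone of 9 members read, at 1.15 (-0.03 to 2.55), against 8.28% of 10194 genes higher. Summed platelet markers in these cells were 911, 2462, 2852 and 1872 CPM and B cell markers 19.3, 147, 117 and 122, in group order. The first group was the lowest in both lists, and their part in the result was not tested. Summed macrophage markers were 15204, 16672, 18092 and 19614 CPM, and median mitochondrial share was 4.50% to 4.75%.

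**Figure D3:**
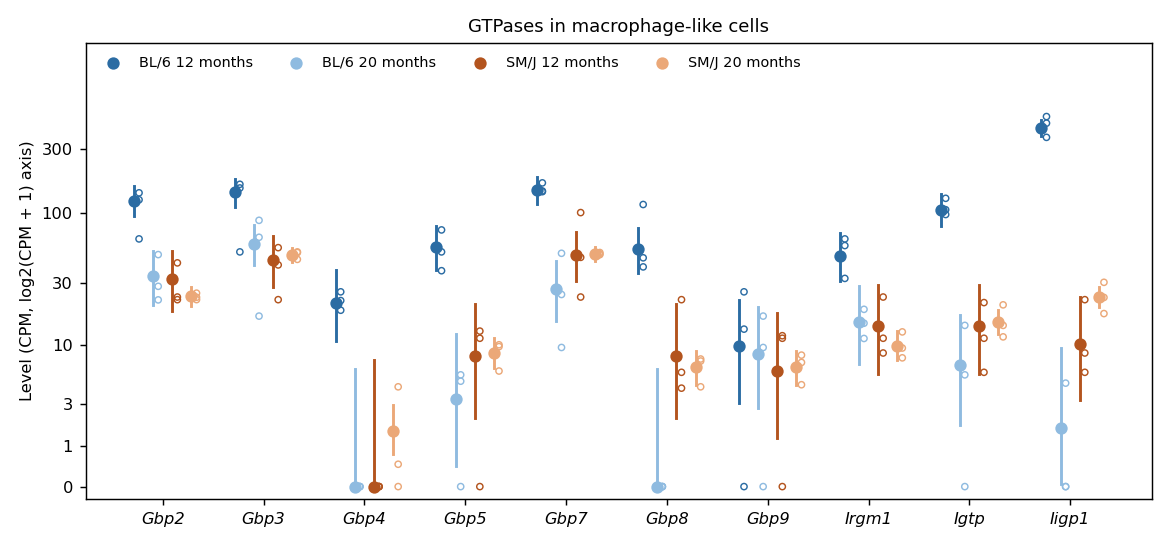
CPM of each member in macrophage-like cells of the 4 groups, on a log2(CPM + 1) axis, with 95% counting intervals and aliquots as open circles. BL/6 at 12 months is above the other groups for most members. Iigp1 is at 427 CPM against 1.69 to 23.6, and Gbp9 is at 6.08 to 9.65 CPM in all 4 groups.

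T cells both release interferon gamma and respond to it. In T cell-like cells no member passed 2-fold with age in BL/6. In SM/J, 2 members did, both lower at 20 months (background 1.78% of 8248 genes): Iigp1 and Irgm1. Iigp1 was at 18.3 (16.4 to 22.0), 11.1 (9.17 to 13.5), 45.2 (36.0 to 52.8) and 10.6 (7.19 to 12.2) CPM in group order. SM/J at 12 months stood apart from the other groups in every aliquot. The SM/J age ratio was -1.99 (-2.94 to -1.13). Irgm1 was at 17.1 (14.0 to 23.1), 20.9 (17.7 to 25.1), 18.5 (10.3 to 24.4) and 5.79 (0 to 9.16) CPM, and its SM/J age ratio of -1.53 (-2.76 to -0.37) rests on 6 UMIs at 20 months.

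Iigp1 was unevenly spread over T cell-like clusters. In cluster 14, led by genes such as Cd4, Icos and Ikzf2, it was at 60.2, 24.8, 87.3 and 21.3 CPM. In cluster 10, which carries Cd8 genes, it was at 6.44, 0, 55.6 and 0 CPM. The make-up of the SM/J class differed with age. Cluster 11 held 159 of 360 cells at 12 months and 56 of 232 at 20 months, and cluster 14 held 65 and 83. The part of this shift in the SM/J ratios was not tested. Other members did not pass 2-fold with age in T cell-like cells: Gbp7 ranged from 45.4 to 61.7 CPM, Gbp4 from 30.9 to 43.5, Gbp8 from 33.1 to 41.7 and Gbp2 from 23.5 to 28.4 over the groups. Igtp ranged from 25.1 to 34.3 CPM, Gbp3 from 12.1 to 20.3, Gbp9 from 14.5 to 17.0 and Gbp5 from 11 to 14.5. The summed T cell-like ratio with age was -0.06 (-0.21 to 0.09) in BL/6, and the SM/J value was -0.38 (-0.60 to -0.16). NK cell-like cells had summed ratios of 0.20 (-0.27 to 0.66) and 0.36 (-0.29 to 1.02). In NK cell-like cells Gbp7 ranged from 50.7 to 85.3 CPM, Gbp8 from 41.9 to 79.0 and Gbp4 from 30.9 to 48.6 over the groups. Each of the other 7 members had at most 13 UMIs in a group, and Iigp1 had 1 in all. At this depth a 2-fold difference of a single member in NK cell-like cells was mostly not detectable.

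In B cell-like cells 1 member passed 2-fold with age, in SM/J. Over the 4 classes, SM/J had 31 pairs with enough UMIs, of which 6 were lower and 1 was higher at 20 months, against 3.69% and 3.57% of all pairs. The higher one was Igtp in B cell-like cells, at 8.24 (6.73 to 9.20), 6.58 (4.32 to 8.85), 8.48 (6.53 to 9.54) and 21.7 (20.1 to 23.0) CPM, with an age ratio in SM/J of 1.26 (0.89 to 1.64). SM/J at 20 months stood above every other aliquot. In this class alone, 6.44% of 12706 genes were higher by the same rule. In 25.2% every 20-month SM/J aliquot was above every 12-month one. Among the 3 classes whose aliquots could be read, 5 of 27 pairs were lower without overlap and 4 were higher, against 16.8% and 15.5% of all pairs, so these shares were near the background.

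The Igtp difference depended on which B cell-like clusters were counted. Cluster 24, led by Zcwpw1, held 14 and 843 SM/J cells at 12 and 20 months and 0 BL/6 cells, and in it Igtp was at 24.9 CPM at 20 months. Without the clusters drawn mostly from 1 group the SM/J age ratio of Igtp was 0.06, and with each strain clustered alone it was -0.39. Clustering each strain alone changed which cells carry the name: of the 1609 B cell-like SM/J cells at 20 months 607 kept it and 999 (62.1%) fell in clusters named plasma cell, as did 430 of 1282 at 12 months. In BL/6 246 of 2004 and 93 of 951 such cells fell in an unnamed cluster. Median depth of B cell-like cells was 3630.5, 3430.0, 4196.0 and 9628.0 UMIs, and the part of that gap in the result was not tested. The summed plasma cell markers in these cells were 352, 342, 928 and 1456 CPM in group order. The neutrophil markers were 337 CPM in SM/J at 12 months and 1.74 to 3.42 in the other groups. The part of either list in the B cell-like values was not tested. No other member passed 2-fold with age in B cell-like cells. Gbp7 was at 23.7 (22.4 to 26.0) and 39.3 (35.9 to 41.3) CPM in SM/J at 12 and 20 months, and Gbp2 at 10.1 (6.94 to 13.1) and 16.9 (14.5 to 20.1). Gbp3 was at 20.3 (18.9 to 22.5) and 21.8 (20.5 to 23.3) CPM in BL/6, while SM/J held 13.1 (12.1 to 14.0) and 22.2 (18.9 to 24.8). Its SM/J aliquots did not overlap, as for 25.2% of the class's genes in that direction. Gbp4 ranged from 9.48 to 13.7 CPM over the groups, Gbp5 from 7.94 to 12.9, Gbp8 from 6.76 to 8.68 and Irgm1 from 7.38 to 13.6. Iigp1 did not exceed 1.04 CPM.

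**Figure D4:**
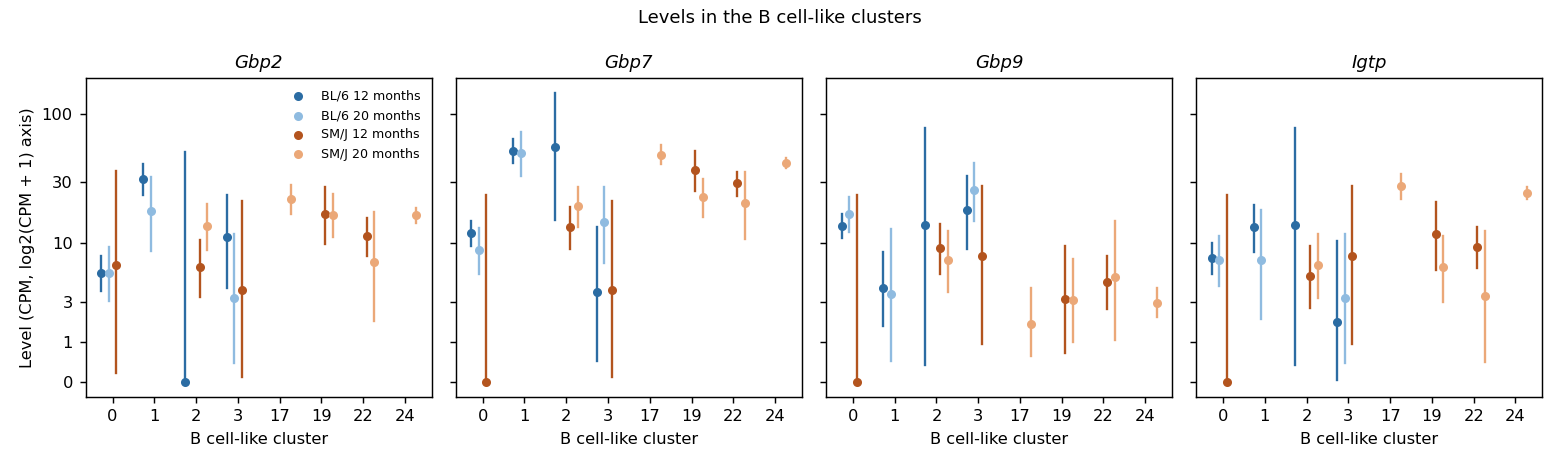
CPM of Gbp2, Gbp7, Gbp9 and Igtp in B cell-like clusters with at least 20 cells of a group, on a log2(CPM + 1) axis. Points are groups within a cluster with 95% counting intervals. Igtp in cluster 24 of SM/J at 20 months is at 24.9 CPM, against 8.48 CPM in all B cell-like cells of SM/J at 12 months.

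The comparison of strains at one age asks how genetic background bears on these genes, with the limit that each strain is 1 run. The BL/6 strain is also the source of the mm10 reference, and the loss of SM/J reads in these similar genes was not tested. At 12 months 35 pairs were read, of which 2 were higher in SM/J and 3 lower, against 5.14% and 5.13% of all pairs. The lower ones were Gbp2 in both monocyte classes, at -2.05 (-2.86 to -1.33) and -1.68 (-2.13 to -1.25), and Irgm1 in nonclassical monocyte-like cells, at -1.19 (-1.83 to -0.56). Without the third SM/J aliquot at 12 months the first of these was -3.56. The nonclassical monocyte-like cells of the strains lay in different clusters: cluster 6 held 304 BL/6 and 2 SM/J cells at 12 months, and cluster 20 held 2 and 380. In this class at 12 months the summed classical monocyte markers were 6798 CPM in BL/6, while SM/J held 2553, and the B cell markers were 51.6 and 1151 CPM. Their part in the strain values was not tested. The higher ones were Iigp1 in T cell-like cells, at 1.26 (0.74 to 1.79), and Gbp9 in nonclassical monocyte-like cells, at 1.03 (0.43 to 1.66). The make-up of the T cell-like class differed: cluster 12 held 182 of its 450 BL/6 cells at 12 months and 31 of its 360 SM/J cells. The summed NK cell markers in T cell-like cells were 1771, 430, 466 and 531 CPM in group order, and their part in the Iigp1 value was not tested. Without overlap of aliquots, 9 pairs were lower and 3 higher, against 19.9% and 17.5% of all pairs. In macrophage-like cells 8 of the 8 members read were past 2-fold lower in SM/J at 12 months, against 6.19% of 5850 genes, with a summed ratio of -2.60 (-2.93 to -2.29). This contrast shares its BL/6 group with the age contrast above. Members such as Iigp1 reached the count minimum through that group alone, so this count is a description too. At 20 months, 4 of 9 members read in macrophage-like cells had a ratio of CPM + 1 past 2-fold higher in SM/J and 0 lower, against 10.9% of 10239 genes higher. Gbp8 is one of the 4, but it had 0 UMIs in BL/6 and is only known to be at least 1.28-fold higher against the floor of 3 counts. The others were Iigp1 at 3.20 (1.22 to 4.57) from 1 UMI in BL/6, Gbp5 at 1.13 (-0.53 to 2.81) from 2, and Igtp at 1.07 (-0.22 to 2.55) from 4. All 4 reached the count minimum through the 397 SM/J cells, against 38 in BL/6, and the intervals of Gbp5 and Igtp include 0. The summed ratio was 0.33 (0.02 to 0.65).

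At 20 months 34 pairs were read, of which 3 were higher in SM/J and 5 lower, against 6.96% and 8.01% of all pairs. The higher ones were all in B cell-like cells, where 3 of 9 members were higher and 1 lower, against 12.6% and 14.8% of that class's 12515 genes: Igtp at 1.58 (1.07 to 2.13), Gbp2 at 1.10 (0.59 to 1.63) and Gbp7 at 1.03 (0.70 to 1.39). Without the clusters drawn mostly from 1 group, Igtp and Gbp7 were at 0.26 and 0.34, and Gbp2 at 1.02. With each strain clustered alone the 3 values were 0.25, 0.22 and 0.97, in the order Igtp, Gbp7 and Gbp2. That setting compares the 607 SM/J cells that kept the B cell name, without the 999 named plasma cell. Gbp9 in B cell-like cells was lower in SM/J at both ages. It was at 12.1 (7.74 to 15.2) and 16 (15.1 to 17.7) CPM in BL/6, while SM/J held 5.66 (4.97 to 6.51) and 3.18 (2.15 to 3.83). The aliquots of the strains did not overlap at either age. In this class 29.6% of genes at 12 months and 36.8% at 20 months were lower in SM/J without overlap. The ratios of Gbp9 were -0.97 (-1.46 to -0.49) at 12 months and -2.03 (-2.47 to -1.57) at 20 months. The B cell-like cells of the strains lay mostly in different clusters: cluster 0 held 1614 and 696 BL/6 cells and 45 and 18 SM/J cells, while clusters 22 and 24 held none from BL/6. Without the clusters drawn mostly from 1 group the 20-month ratio of Gbp9 was -1.54, and with each strain clustered alone it was -1.71. The other lower pairs were Irgm1 in T cell-like cells, at -1.69 (-2.87 to -0.61), and 3 members in classical monocyte-like cells. These were Gbp3 at -1.32 (-2.30 to -0.46), Gbp2 at -1.18 (-2.57 to 0.10) and Gbp9 at -1.06 (-2.46 to 0.22). The last pair rest on 4 SM/J UMIs each, and their intervals include 0. In the 3 classes read by aliquot, 3 of 27 pairs were lower and 3 higher without overlap, against 22.3% and 19.5% of all pairs.

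Other genes of the pathway were read from lists. The ligand gene Ifng was found mainly in T and NK cell-like cells: T cell-like cells held 73.5, 42.2, 29.6 and 47.3 CPM and NK cell-like cells 199, 210, 129 and 201, against no more than 5.06 CPM in monocyte-like, macrophage-like and B cell-like cells. The receptor gene Ifngr1 was at 540, 490, 360 and 644 CPM in classical monocyte-like cells, and Ifngr2 at 130, 121, 123 and 117. Neither receptor gene passed 2-fold with age there.

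Of the 18 genes of the interferon-gamma pathway, 17 were read in BL/6 classical monocyte-like cells, and 8 were lower and 0 higher at 20 months, against 2.19% and 2.5% of the class's genes, with a median log2 ratio of -0.91 against 0.02 over all genes. Nlrc5, which drives the MHC class I genes, was at 69.5 and 13.7 CPM in BL/6. Cxcl10, a chemokine that draws T cells, had ratios of -3.07 in BL/6 and -3.11 in SM/J, from few UMIs at 20 months. In SM/J 2 of 15 genes read were lower, against 3.25% of the class's genes. In nonclassical monocyte-like cells 6 of 15 were lower in BL/6, against 1.81%, and 0 of 14 in SM/J, against 3.24%. In BL/6 macrophage-like cells 7 of 14 were lower, against 3.79%. In those of SM/J 2 of 15 were lower (Jak2 and Ciita) and 1 was higher (Cxcl10, at least 1.93-fold against 0 UMIs in the 12-month cells), against 2.87% and 8.28% of genes, with a median of 0.19.

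Targets known best for type I interferon also differed in classical monocyte-like cells: 10 of 11 were lower at 20 months in each strain, with medians of -2.36 in BL/6 and -2.20 in SM/J, against 2.19% and 3.25% of the class's genes lower. Ifit1, which binds foreign RNA caps, was at 39.5 CPM in SM/J at 12 months with 0 UMIs at 20 months, at least 10.5-fold lower. In nonclassical monocyte-like cells 2 of 6 targets were lower in BL/6, against 1.81%, and 3 of 7 in SM/J, against 3.24%. In macrophage-like cells 4 of 5 were lower in BL/6 (median -2.21), against 3.79%, and 2 of 7 in SM/J (median -0.60), against 2.87%. Of the other GTPases of the 2 families, 2 of 4 read were lower in BL/6 classical monocyte-like cells, against the same 2.19%, and 3 of 3 in SM/J, against 3.25%. Ifi47, an IRG, was at 79.7 and 10.7 CPM in BL/6 and at 64.0 and 20.1 in SM/J. In BL/6 macrophage-like cells 6 of 7 were lower, against 3.79% of genes, among them Gm4951, an IRG gene, at 280 and 8.44 CPM, and Gbp2b at 529 and 86.1. In those of SM/J 1 of 7 was higher (Gbp2b, at 36.5 and 98.8 CPM) and 1 lower (Irgm2, at 20.3 and 8.06), against the same 8.28% and 2.87%, with a median of 0.02. In T cell-like cells the type I targets differed with age in opposite directions in the strains: 7 of 10 read were past 2-fold lower in SM/J (median -1.57), against 1.78% of 8248 genes, and 3 of 10 were higher in BL/6, against 1.49% of 9881 genes. Usp18, which restrains interferon receptor signalling, was at 4.67 and 34.6 CPM in BL/6 at 12 and 20 months and at 42.3 and 4.82 in SM/J. The difference between the strains was not tested. The make-up of the BL/6 T cell-like class also differed with age: cluster 12 held 182 of 450 cells at 12 months and 56 of 530 at 20 months, and the summed NK cell markers were 1771 and 430 CPM. Their part in the BL/6 values was not tested. The SM/J class shifted too, as given above for clusters 11 and 14, and its summed B cell markers were 63.8 and 123 CPM. The part of either in the SM/J values was not tested. Genes that partner with these GTPases, such as Atg5 of autophagy and Casp1 and Gsdmd of the inflammasome, were read too. All 14 were read in both monocyte classes and macrophage-like cells, and 0 passed 2-fold with age in either strain, with medians from -0.09 to 0.06. In lymphocytes of SM/J 4 values passed 2-fold, all higher at 20 months. Casp1 was at 1.72 (0.85 to 2.60) and Casp4 at 1.34 (0.84 to 1.84) in T cell-like cells, 2 of 13 read against 3.03% of genes. The part of the shift in SM/J T cell-like clusters in these 2 values was not tested. Casp1 was at 1.61 (0.24 to 3.17) in NK cell-like cells, 1 of 10 against 4.39%, and rests on 6 UMIs at 12 months. Pycard, the inflammasome adaptor, was at 1.14 (1.02 to 1.27) in B cell-like cells, 1 of 13 against 6.44%. Cluster 24 held 14 and 843 of these SM/J cells at 12 and 20 months, and median depth was 4196.0 and 9628.0 UMIs. Their part in the Pycard value was not tested. None passed 2-fold with age in the lymphocytes of BL/6.

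**Figure D5:**
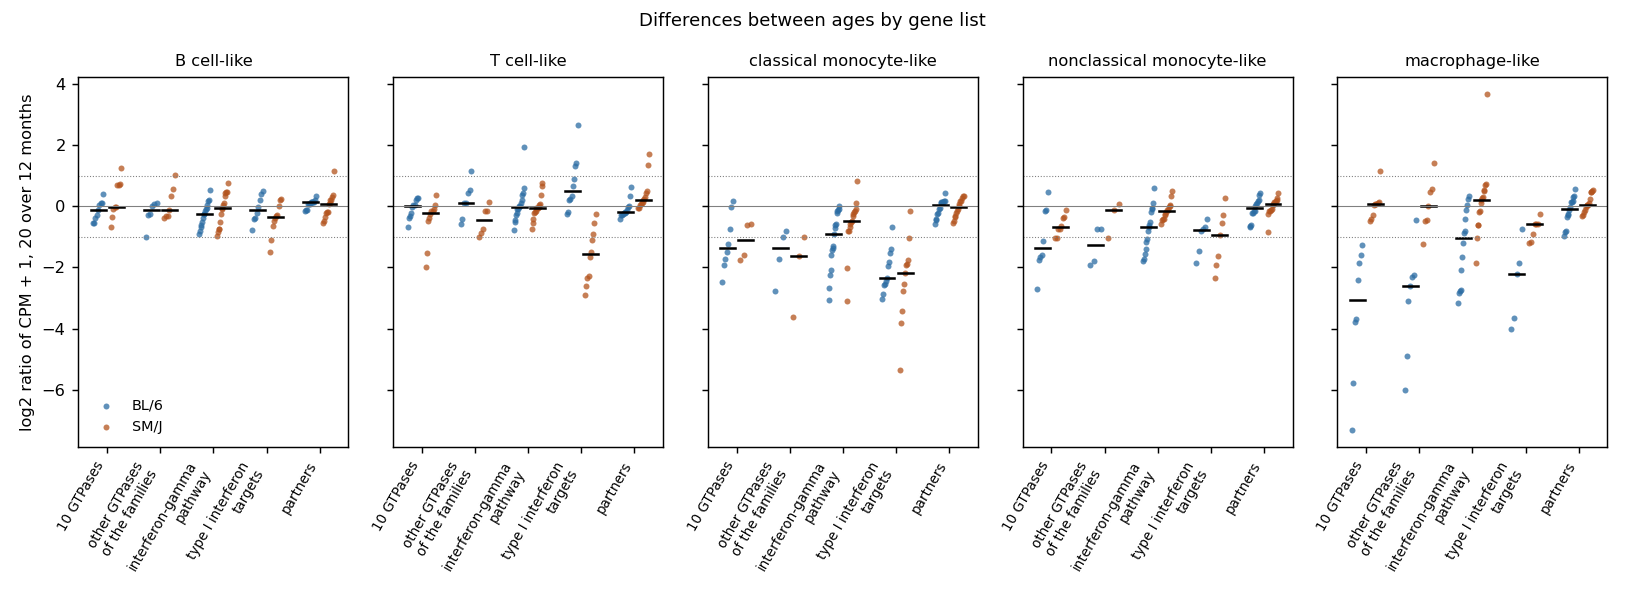
Log2 ratio of CPM + 1 (20 over 12 months) of each gene read in the members and the 4 lists, for B cell-like, T cell-like, monocyte-like and macrophage-like cells of each strain. Black bars are medians, dotted lines mark 2-fold, and a gene with 0 UMIs in a group is drawn at its ratio of CPM + 1. In BL/6 classical monocyte-like cells the interferon-gamma pathway has a median of -0.91 and the type I targets one of -2.36, while the 14 partner genes lie within the dotted lines.

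Across the 20 points of 5 classes (without macrophage-like cells, of which some groups had too few) and 4 groups, the gene whose level most resembled the summed members was Ifi47, with a Pearson r of 0.942 among 6176 genes. Tmsb10 (0.826), Plaat3 (0.808), Ms4a4b (0.804) and Cst7 (0.803) followed. The points share runs, so these values are descriptions.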

How the data were processed

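The UMI counts are raw, as deposited by the authors, and were made with Cell Ranger 7.0.1 per the file headers. The submitters' processing notes name mm10, Cell Ranger and Seurat 4.3.0. Identifiers were looked up in GENCODE M21 (32235 of 32285 found), and promoters in RefSeq (GRCm38.p6). Proteins were not analysed here.

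Cells needed at least 500 UMIs, 200 genes and at most 10% mitochondrial UMIs, and 125 doublets called by Scrublet (expected rate 0.06) were left out. Clustering used scanpy 1.11.5 (2000 variable genes, 30 components, 15 neighbours, Leiden resolution 1.0, seed 0), and classes were named from fixed markers. Cells with at least 10% hemoglobin UMIs were set aside first, a rule chosen after a marker rule had named a T cell cluster (cluster 11) erythroid. UMIs were summed per class and group. Intervals are exact Poisson for levels and conditional binomial (Clopper-Pearson) for ratios, computed with scipy 1.17.1 and checked on simulated data. TMM factors came from edgeR 4.0.16 and served as an alternative scaling. All 10 members were read in every class, and those not named singly stand in counts. From each list at most 4 genes past 2-fold with the largest ratios were named, beside genes named for a level. Members and lists were chosen with earlier results of these data known. Intervals cover counting error only.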

Additional observations from a re-analysis of the deposited data

Results flagged for a closer look

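The cases below were picked by searching all members and classes for aliquots that did not overlap, in opposite directions. Gbp2 in B cell-like cells had age ratios of opposite sign in the strains, -0.56 in BL/6 and 0.69 in SM/J. The aliquots did not overlap in either strain. Among all genes of the class, 8.02% were lower without overlap in BL/6 and 25.2% higher in SM/J. Gbp9 in nonclassical monocyte-like cells also had opposite signs without overlap, at 0.48 in BL/6 and -0.75 in SM/J. There 13.4% of genes were higher without overlap in BL/6 and 10.1% lower in SM/J. The summed members in B cell-like cells were lower in SM/J than in BL/6 at 12 months, at -0.33, and higher at 20 months, at 0.27. Among all genes of the class, 29.6% were lower without overlap at 12 months and 27.9% higher at 20 months. These differences between strains or ages were not tested. The summed B cell-like ratio was -0.02 at 20 months without the clusters drawn mostly from 1 group.

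Igtp also appeared in cells outside the classes compared. In the platelet-like cells of BL/6 (148 and 173 cells), Igtp was at 666 CPM at 12 months and 432 CPM at 20 months, from 123 and 94 UMIs. Of the other 9 members only Gbp9 and Iigp1 had a UMI there, 1 each, at 20 months. The neighbouring gene Irgm2, whose exons overlap those of Igtp, had 0 and 2 UMIs. Cluster 9, with 65 and 24 SM/J cells and 3 BL/6 cells, had platelet as its nearest marker class but stayed unnamed, and in it Igtp was at 163 and 189 CPM in SM/J at 12 and 20 months. With each strain clustered alone, 89 SM/J cells (65 and 24) formed a cluster named platelet-like.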

How the results depend on the processing

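Of the 56 ratios past 2-fold, 568 of 569 values under alternatives kept their sign and 509 stayed past 2-fold. The exception in sign was the SM/J age ratio of Igtp in B cell-like cells, which was -0.39 when each strain was clustered alone. Among the counts of pairs past 2-fold, those of BL/6 with age stayed within 1.5 times throughout (0 higher, 9 to 11 lower with an aliquot left out). For SM/J with age, the 1 pair higher became 0 at a pseudocount of 5 CPM, with cells weighted equally, with each strain clustered alone and without B cell-like clusters mostly of 1 group, and 2 at a mitochondrial limit of 5 percent. The 6 lower became 10 with a filter of 1 UMI and 3 with one of 50. For strains at 12 months, the 2 higher became 1 under TMM factors, a pseudocount of 5 CPM and equal weights. At 20 months, the 3 higher became 1 at a pseudocount of 5 CPM and without those B cell-like clusters, and 6 with a filter of 1 UMI, and the 5 lower became 3 at a pseudocount of 5 CPM and with each strain clustered alone. With 1 aliquot left out the ranges were 0 to 1 higher and 4 to 8 lower for SM/J with age, 1 to 3 higher and 3 to 4 lower for strains at 12 months, and 1 to 5 higher and 3 to 6 lower at 20 months. The causes were not tested. TMM scaling moved every ratio of a class and comparison by at most 0.28, in B cell-like cells between strains at 20 months. Leaving cluster 11 out of the T cell-like class, an alternative chosen after seeing the data, moved the summed SM/J age ratio there from -0.38 to -0.68. No paired analysis was possible because each group is 1 cell matrix and aliquots are not replicates.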

Other observations

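Gbp2b, a GBP gene outside the 10, had 0 UMIs in T cell-like cells of BL/6 at both ages and was at 21.4 and 19.3 CPM in SM/J, at least 18.4-fold and 19.7-fold higher against a floor of 3 counts per group. In macrophage-like cells both strains held it, at 529 and 86.1 CPM at 12 and 20 months in BL/6, while SM/J held 36.5 and 98.8.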
